A study of Mus musculus with 12 samples.

Results

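The heat shock proteins and DnaJ proteins, the chaperones that keep other proteins folded, were followed as mRNA in the mouse ventral hippocampus, a brain region tied to emotional behaviour. Members were all genes with an Hspa, Hspb, Hsp90, Dnaja, Dnajb or Dnajc symbol, together with Hspd1, Hspe1 and Hsph1. A symbol was kept when it had 10 or more counts in at least 3 of the 12 libraries, and 64 of 72 matching symbols, out of 23183 symbols in all, met that minimum. Just inside it were Hspb3 and Dnajb13, each with 10 counts or more in 3 libraries, and just outside it was Hspb2, which reached 10 counts in 2 libraries. The other symbols outside it were Dnajb7, Dnajb8, Dnajc22, Dnajc5b, Dnajc5g, Hspb7 and Hspb9, with at most 5 counts in any library. Of the 64 members, 63 passed the filter for testing, and Hspb3, which codes for a small heat shock protein, did not.

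All 12 mice were wild-type C57BL/6J males, 8 weeks old at the start, in 4 groups of 3. Control mice (C, mice 2, 8 and 12) had no treatment. Stress-susceptible mice (SS, mice 18, 19 and 21) were restrained for 2 hours a day over 14 days and had no running wheel. The other 2 groups were stress-susceptible mice that also ran voluntarily on a wheel and whose behaviour did improve (SES, effective responders, mice 9, 10 and 12) or did not (SER, ineffective responders, mice 6, 19 and 20). The sample titles give 14 days of running and the protocol gives 4 weeks, and both are stated because the sources used here do not settle it. The 3 exposed groups were sorted by behaviour after treatment, so susceptibility and response to running were not assigned. Throughout, values of a group are given in the mouse order above.

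Chaperones bind unfolded or partly folded proteins and release them in cycles driven by ATP. Hsp70 proteins (Hspa genes) hold short exposed stretches of a client, DnaJ proteins deliver clients and trigger the ATP hydrolysis of Hsp70, and Hsp90 proteins act later on signalling clients such as kinases and the glucocorticoid receptor. Small heat shock proteins (most Hspb genes) hold unfolded proteins without ATP. A heat-inducible set is switched on by the transcription factor HSF1, a constitutive cytosolic set is made at all times, and a set in the endoplasmic reticulum (ER) is raised by the unfolded protein response. The 64 members were put in these classes from textbook knowledge, with 8 heat-inducible, 13 constitutive cytosolic, 11 ER and 8 mitochondrial. A further 3 were synaptic vesicle or clathrin genes, 4 had other Hspb symbols (the small heat shock class) and 17 were not classified.

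The upstream DNA of 5 members is shown as examples of heat shock and ER stress elements in members whose levels are described below. As the counts after the sequences show, heat shock elements occurred in several classes. The ER stress element was found in ER members only, and in 3 of 9 of them. Each line holds the 250 bases before the annotated start, 5′ to 3′ on the gene's own strand, from RefSeq (GRCm38.p6). Capitals mark heat shock elements in the first 3 lines and ER stress elements in the last 2. Hspa1a (chr17:34972157-34972406, minus strand) and Hspa1b (chr17:34959239-34959488, minus strand) are neighbouring inducible Hsp70 genes, Hspe1 (chr1:55087898-55088147, plus strand) codes for the lid of the mitochondrial chaperonin, Hspa5 (chr2:34771840-34772089, plus strand) is the Hsp70 of the ER, and Hsp90b1 (chr10:86705445-86705694, minus strand) is its Hsp90.
Hspa1a: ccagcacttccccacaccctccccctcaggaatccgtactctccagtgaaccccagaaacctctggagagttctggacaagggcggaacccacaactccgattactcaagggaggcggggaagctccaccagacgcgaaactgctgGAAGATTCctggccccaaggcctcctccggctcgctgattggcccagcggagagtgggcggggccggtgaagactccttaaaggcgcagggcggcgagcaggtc
Hspa1b: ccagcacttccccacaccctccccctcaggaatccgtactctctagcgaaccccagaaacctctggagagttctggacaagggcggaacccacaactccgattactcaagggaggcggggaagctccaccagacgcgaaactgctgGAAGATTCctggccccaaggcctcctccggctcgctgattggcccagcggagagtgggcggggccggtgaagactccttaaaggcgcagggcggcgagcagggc
Hspe1: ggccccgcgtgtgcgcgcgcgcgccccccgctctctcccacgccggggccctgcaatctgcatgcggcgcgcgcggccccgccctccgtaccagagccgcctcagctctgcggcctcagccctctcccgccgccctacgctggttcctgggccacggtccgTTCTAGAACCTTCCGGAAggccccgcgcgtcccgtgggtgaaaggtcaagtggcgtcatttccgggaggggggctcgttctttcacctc
Hspa5: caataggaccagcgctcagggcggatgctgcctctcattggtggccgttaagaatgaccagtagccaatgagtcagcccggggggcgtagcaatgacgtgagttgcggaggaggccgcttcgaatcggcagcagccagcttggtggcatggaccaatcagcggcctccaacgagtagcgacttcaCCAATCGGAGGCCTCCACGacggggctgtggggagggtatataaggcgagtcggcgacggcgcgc
Hsp90b1: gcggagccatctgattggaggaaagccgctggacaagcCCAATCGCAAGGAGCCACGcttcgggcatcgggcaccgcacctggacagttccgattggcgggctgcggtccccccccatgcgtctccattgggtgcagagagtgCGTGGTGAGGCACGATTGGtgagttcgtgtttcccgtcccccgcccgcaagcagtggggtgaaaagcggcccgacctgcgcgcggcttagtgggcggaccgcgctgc

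The 2 inducible Hsp70 genes differed at 3 of these 250 bases (98.8% identity), and both carried the heat shock element pair GAANNTTC from 104 to 97 bases before the start. Hspe1 held 3 overlapping pairs, which together make 2 matches to the triple element, which is GAANNTTC followed by any 2 bases and GAA, counted on both strands, between 89 and 72 bases before its start. The pair GAANNTTC stood upstream of 11 of the 53 members with a sequence entry (20.75%) and of 7.726% of 27025 genes searched in the same window on both strands. By class it was in 4 of 7 heat-inducible, 2 of 10 constitutive cytosolic, 2 of 5 mitochondrial and 0 of 9 ER members.
The reverse arrangement TTCNNGAA was in 6 of 53 members (11.32%) and 8.115% of all genes. The triple element, which contains both pairs, was in 3 members (Dnajb6, Hspd1 and Hspe1; 5.66%) against 0.5143% of genes. The ER stress element, CCAAT and CCACG with any 9 bases between, the site through which unfolded protein response factors are known to act, was in 3 members (Dnajc3, Hsp90b1 and Hspa5), all of them ER members (3 of 9), against 0.1295% of genes, and Hsp90b1 held 2 copies. The glucocorticoid response element, GNACA and TGTNC with any 3 bases between, matched in 0 members and 0.4403% of genes, and the related ER element, ATTGG and CCACG with any 1 base between, in 0 members and 0.037% of genes. These matches describe letters in a window and were not tied to binding in these mice.

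Members together took 1.01% to 1.16% of each library's counts. Measured per kilobase of transcript (CPM, a count scaled to library size, divided by length), the constitutive Hsp70 gene Hspa8 was first, with a mean over the 12 mice of 855 CPM per kilobase. Hsp90ab1, the constitutive cytosolic Hsp90, followed at 691 and Hsp90aa1, its inducible partner, at 471 CPM per kilobase, and neighbouring ranges over mice overlapped at their ends, 787 to 967 for Hspa8, 593 to 793 for Hsp90ab1 and 340 to 614 for Hsp90aa1. Next came Hsp90b1 at 124, Dnajb6 at 115, Hspe1 at 106, Dnaja1 at 101 and Hspa5 at 91.3 CPM per kilobase. The classical inducible genes were near the bottom, Hspa1b at 3.59 and Hspa1a at 2.40 CPM per kilobase, ranks 56 and 58 of 64, and Dnajb13 was last at 0.210. Constitutive forms thus stood far above the inducible Hsp70 genes in every group, while the inducible Hsp90 gene was itself abundant. Hspa1a and Hspa1b are near-identical, and whether reads shared by both were kept in the counts is not given, so their levels could be too low.

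Library totals ran from 9323607 to 15707516 counts. Library differences in nuclear RNA, choroid plexus RNA and cell type markers bear on what follows. SS mice 19 and 21 were very high in Malat1, a nuclear noncoding RNA, with 3761 and 5257 CPM, while SS mouse 18 had 505 CPM, the C mice 263 to 505 CPM and the running mice 988 to 1974 CPM. Of 7 nuclear-retained RNAs, 6 were called higher in SS than in C and 7 of 7 had a positive fold change, with summed levels of 1321 to 1732 CPM in C, 1282 to 12062 in SS, 2882 to 3999 in SES and 2080 to 2887 in SER. Choroid plexus RNA was uneven within groups, summing over 12 markers to 3784 CPM in C mouse 2, 5489 in SS mouse 18 and 914 to 5017 in SES against 17.8 and 48.1 in the other C mice, 25.8 and 31.9 in the other SS mice and 77.6 to 1181 in SER. No marker of the choroid plexus, endothelial, oligodendrocyte, astrocyte, microglial or neuronal lists was at 0 throughout a group, and 12 of 12 hippocampal neuron markers were detected, with sums of 4607 to 5598 CPM. In SS against C, 3 of 14 endothelial and mural markers and 1 of 10 oligodendrocyte markers were called lower, 2 of 12 neuronal markers higher and 1 lower, and 0 of the choroid plexus, astrocyte and microglial markers were called. In SER against C, 3 of 10 astrocyte markers (Aldoc, Slc1a2 and Sox9) and 1 of 10 microglial markers (Csf1r) were called higher, and 3 of 14 endothelial and mural markers and 1 of 10 oligodendrocyte markers lower. In SES against C the call was 1 oligodendrocyte marker, lower, in SER against SS Sox9 and the neuronal marker Pou3f1, both higher, and in SES against SS and SES against SER 0 markers of these 6 lists were called. Oligodendrocyte marker sums were 11458 CPM in SS mouse 18, 3771 and 3608 in SS mice 19 and 21 and 6154 to 10148 in C. In SS against C 0 of 10 had a positive fold change (median -0.34). The sums were 4833 to 7707 in SES and 4657 to 8405 in SER. Astrocyte sums were 9076 to 10331 in SER, 6649 to 7385 in C, 6348 to 7129 in SS and 6989 to 8519 in SES. The part of nuclear RNA, choroid plexus RNA and cell composition in the results was not tested beyond the fits quoted beside them.

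**Figure D1:**
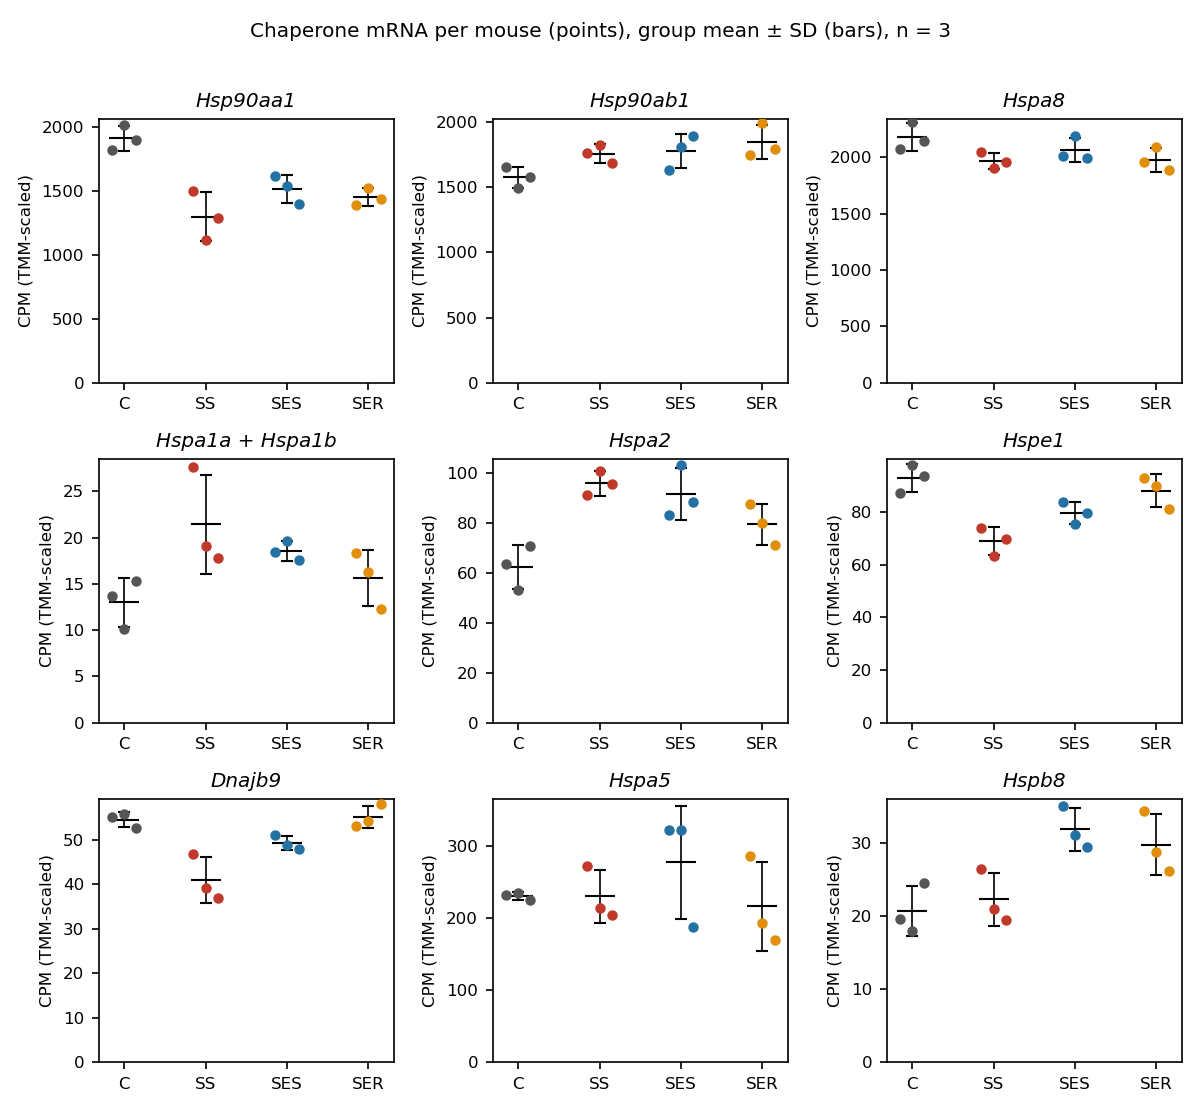
Level of 9 chaperone genes (Hspa1a and Hspa1b are summed) in CPM, with 1 point per mouse and the mean ± SD of 3 mice per group. Hsp90aa1 stood at 1818 to 2015 CPM in C and at 1116 to 1616 CPM in the 9 stress-exposed mice, while Hspa8 stood at 1884 to 2314 CPM over all 12 mice.

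Restraint stress was examined first, by comparing sedentary SS mice with C. Of 63 members tested, 8 were called (12.7%), where 9.83% of all 14541 genes were called in the same fit, so the share was near the background. The genes that fell were Hsp90aa1, Hspe1, Dnajb9, Dnaja2, Dnajc9 and Dnaja1 (6 members, against a background of 4.63% of genes called lower), and those that rose were Hspa2 and Dnajc16 (2 members, against 5.21%). In a bulk tissue, fewer cells of a type and less RNA per cell cannot be told apart. The calls changed with the libraries and covariates in the fit, for members and for all genes alike. With a nuclear RNA covariate 0 of the 63 were called, where 0% of all genes were called. The smallest adjusted p among the 8 was 0.211 in that edgeR fit. When SS mouse 18 was left out 18 of 64 were called, including the 8, where 25.7% of all genes were called. Leaving out C mouse 8, SS mouse 19 or SS mouse 21 gave 0 calls, where 0% of all genes were called. Leaving out C mouse 12 gave 1 (0.528% of all genes), C mouse 2 gave 4 (5.75%) and SES mouse 9 gave 4 (6.47%). Leaving out SER mouse 20 gave 4 (6.16%), SES mouse 10 gave 5 (7.14%) and SES mouse 12 gave 7 (6.8%). Leaving out SER mouse 6 gave 6 (8.66%) and SER mouse 19 gave 6 (8.53%). With a correction for GC content and length, 0 were called as well, where 0% of all genes were called. All 8 kept their direction in every one of these fits, but not their size. With the nuclear covariate Dnajc16 stood at 0.52 (0.49 in the fit of all 12 mice without it), Hspa2 at 0.50 (0.62), Hspe1 at -0.35 (-0.43) and Hsp90aa1 at -0.39 (-0.56), while Dnaja1 stood at -0.17 (-0.39), Dnaja2 at -0.18 (-0.32) and Dnajb9 at -0.24 (-0.42). With mouse 18 alone standing for SS, Dnaja1 was at -0.13 and Dnaja2 at -0.14, and with the GC correction Dnajb9 was at -0.20 and Hspe1 at -0.17.

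Among heat-inducible members the 2 directions were both present. Hsp90aa1 (chr12:110691036-110696395), the inducible cytosolic Hsp90 that holds the glucocorticoid receptor among other clients, stood at 1818, 2015 and 1897 CPM in C and at 1496, 1116 and 1285 CPM in SS. Every SS mouse was below every C mouse, mouse 18 least so. The log2 fold change was -0.56 ± 0.11 (SE, edgeR adjusted p = 0.0223), and it was -0.36 (adjusted p = 0.248) with mouse 18 alone standing for SS. Dnaja1, a DnaJ partner of Hsp70 in the cytosol, was at 423, 453 and 432 CPM in C and at 400, 292 and 308 CPM in SS. It fell by 0.39 ± 0.11 (log2, adjusted p = 0.0464), with the groups apart by a small gap at mouse 18.

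The inducible Hsp70 genes lay on the other side. Hspa1b was at 7.76, 4.92 and 9.19 CPM in C and at 16.8, 11.6 and 9.93 CPM in SS, a log2 difference of 0.81 ± 0.25 (adjusted p = 0.0551). Hspa1a had 5.89, 5.14 and 6.10 CPM in C and 10.8, 7.45 and 7.81 CPM in SS, a log2 difference of 0.60 ± 0.20 (adjusted p = 0.0718). For both genes no SS mouse overlapped C, and both were highest in SS mouse 18, the SS library with the least nuclear RNA. That mouse was the SS mouse nearest to the C mean for 34 of 63 members, mouse 19 for 15 and mouse 21 for 14. Because their sequences are near-identical and the authors' counting could divide reads between them, their counts were also summed, at 13.7, 10.1 and 15.3 CPM in C and 27.6, 19.1 and 17.7 CPM in SS. The sum rose by 0.72 ± 0.20 (log2, adjusted p = 0.0406), a step chosen after the values were seen. It was 0.50 ± 0.19 (adjusted p = 0.0644) without SS mouse 18, 1.09 ± 0.23 (0.162) with mouse 18 alone standing for SS, 0.94 ± 0.23 (0.197) with the nuclear covariate and 0.55 ± 0.21 (0.175) with the GC correction.

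The other heat-inducible members were not called. Hsph1, a nucleotide exchange factor for Hsp70, had a log2 difference of -0.22 ± 0.11 (adjusted p = 0.195). Dnajb1, the main DnaJ partner of inducible Hsp70, had -0.14 ± 0.10 (adjusted p = 0.426), and Dnajb4 had -0.11 ± 0.11 (adjusted p = 0.546). Hspb1, a small heat shock protein, was low and variable, at 4.40, 5.14 and 3.09 CPM in C and 6.57, 5.33 and 3.23 CPM in SS, with a difference of 0.25 ± 0.32 (adjusted p = 0.658). The class therefore moved in no single direction, with 3 of 8 fold changes positive and a median log2 fold change of -0.12, beside 0.018 for all genes tested.

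**Figure D2:**
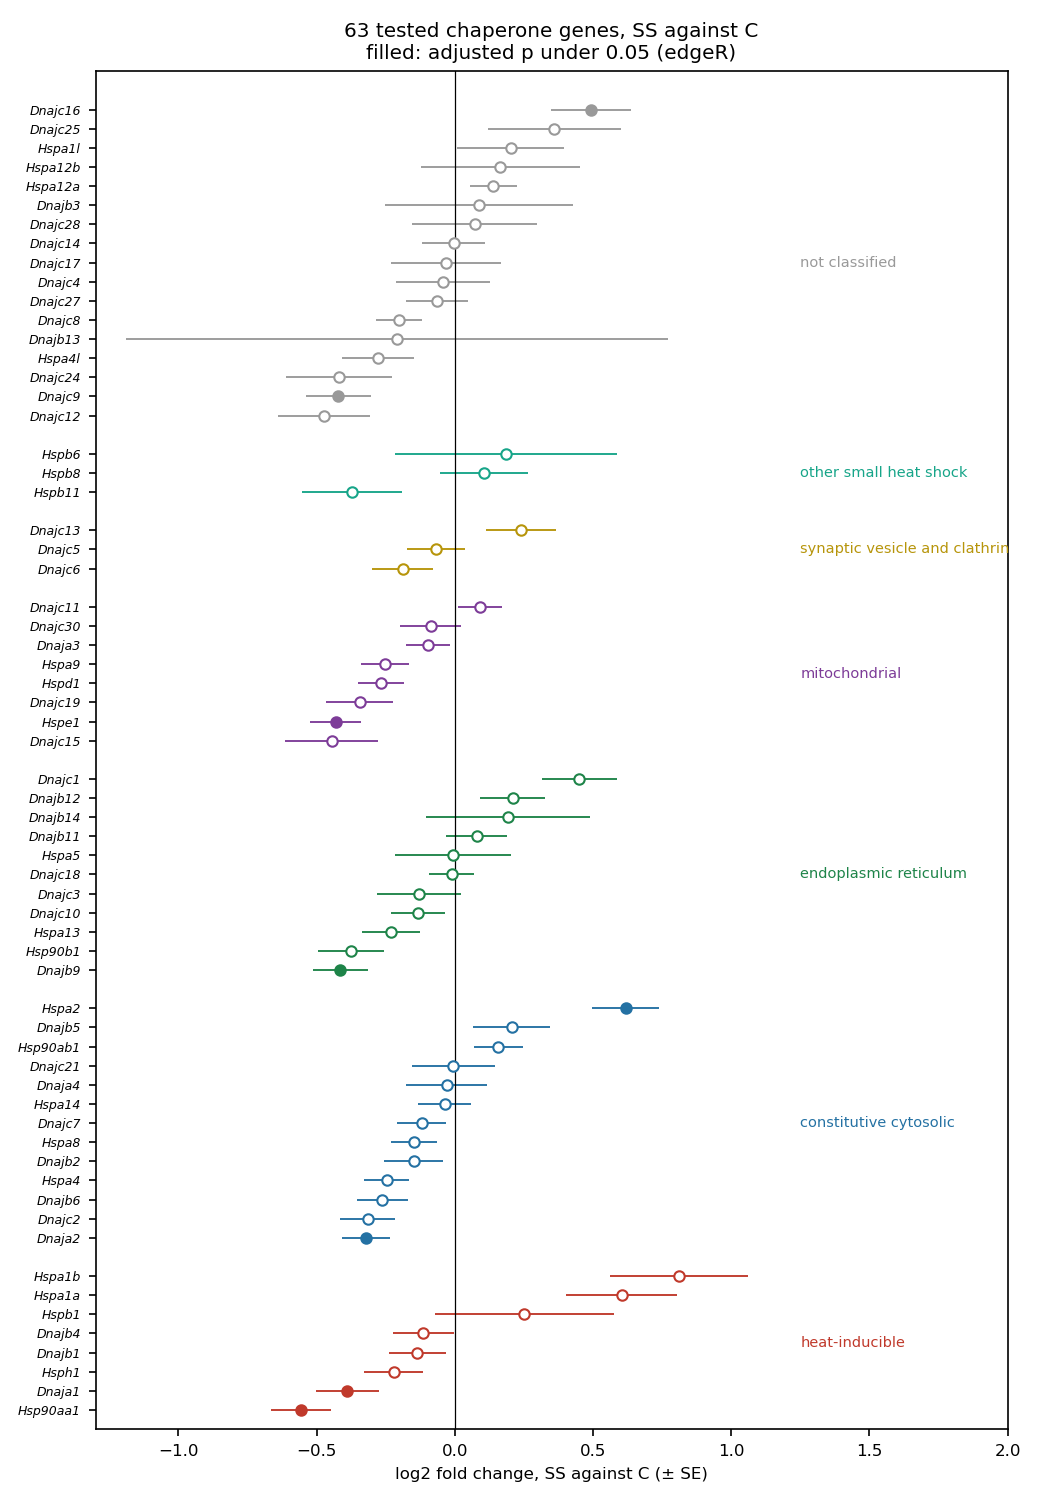
Log2 fold change of each of the 63 tested members between SS and C with its SE, grouped by class, where filled symbols have an adjusted p under 0.05. The heat-inducible class holds both the lowest value, Hsp90aa1 at -0.56, and the highest, Hspa1b at 0.81.

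Constitutive cytosolic members were mostly a little lower in SS, with 3 of 13 fold changes positive and a median of -0.12. Hspa2 (chr12:76403812-76406938), an Hsp70 gene best known from male germ cells and also made in brain, was the exception that rose, by 0.62 ± 0.12 (adjusted p = 0.0223). Its level was 63.8, 53.2 and 70.8 CPM in C and 91.2, 101 and 95.9 CPM in SS, with no overlap and with mouse 18 close to the other SS mice. Dnaja2, a cytosolic DnaJ partner of Hspa8, fell by 0.32 ± 0.09 (adjusted p = 0.0365), from 239, 250 and 255 CPM to 225, 183 and 187 CPM. The abundant constitutive pair was not called: Hspa8 was at 2074, 2314 and 2148 CPM in C and 2044, 1901 and 1955 CPM in SS (log2 difference -0.15 ± 0.08, adjusted p = 0.269), and Hsp90ab1 at 1654, 1495 and 1583 CPM against 1765, 1828 and 1685 CPM (0.16 ± 0.09, adjusted p = 0.271). The groups did not overlap for either gene, in opposite directions, but neither difference passed the test.

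In the ER class 1 of 11 members was called. Dnajb9 (ERdj4), an ER DnaJ protein that binds misfolded proteins and the stress sensor IRE1, fell by 0.42 ± 0.10 (adjusted p = 0.0283), from 55.2, 55.7 and 52.7 CPM in C to 46.8, 39.1 and 36.8 CPM in SS. Hsp90b1 (GRP94), the ER Hsp90, was at 412, 419 and 367 CPM in C and 282, 299 and 343 CPM in SS, groups that did not overlap, with a log2 difference of -0.38 ± 0.12 (adjusted p = 0.0619). Unlike Hsp90aa1, it was lowest in SS mouse 18. Hspa5 (BiP), the central ER chaperone, had 233, 235 and 225 CPM in C and 272, 213 and 205 CPM in SS, with values on both sides of the controls and a difference of -0.0053 ± 0.21 (adjusted p = 0.991). Dnajc3 (P58IPK), an inhibitor of the kinase PERK, was at 77.2, 72.9 and 63.5 CPM against 82.0, 59.3 and 54.3 CPM (-0.13 ± 0.15, adjusted p = 0.626), and Dnajc1, a DnaJ protein of the ER membrane, had the most positive difference of the class (0.45 ± 0.14, adjusted p = 0.0528). With 4 of 11 positive and a median of -0.012, the ER members as a class lay beside 0.018 for all genes.

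Of the 8 mitochondrial members, 1 had a positive fold change, and the class median was -0.26 beside 0.018 for all genes. Hspe1 (chr1:55088148-55091317), the lid subunit of the chaperonin, fell by 0.43 ± 0.09 (adjusted p = 0.0239), from 87.2, 97.8 and 93.6 CPM to 73.8, 63.4 and 69.6 CPM. Hspd1 (chr1:55077833-55088243), the barrel subunit, starts head to head with Hspe1 and overlaps it, so reads in the overlap could be given to either gene. Its level was 207, 217 and 198 CPM in C and 190, 165 and 162 CPM in SS (-0.27 ± 0.08, adjusted p = 0.0582), without overlap between groups. Hspa9 (mortalin), the matrix Hsp70 that pulls proteins through the import channel, was at 279, 250 and 254 CPM against 230, 219 and 208 CPM (-0.25 ± 0.09, adjusted p = 0.0781). For all 3 genes SS mouse 18 was the SS mouse nearest to C.

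Of the DnaJ proteins at synapses, Dnajc5 (cysteine string protein, a guard of presynaptic SNARE proteins) had 332, 344 and 320 CPM in C and 364, 315 and 270 CPM in SS (-0.07 ± 0.11, adjusted p = 0.714). Dnajc6 (auxilin, which strips clathrin from vesicles) had 330, 348 and 372 CPM against 356, 300 and 265 CPM (-0.19 ± 0.11, adjusted p = 0.286). The SS mice lay on either side of the controls for Dnajc5, and for Dnajc6 mouse 18 lay among the controls and the other 2 below them. Among members without a class, Dnajc9, a DnaJ protein that also chaperones histones, fell by 0.42 ± 0.12 (adjusted p = 0.0406), from 32.5, 31.9 and 36.5 CPM to 27.3, 22.4 and 25.7 CPM. Dnajc16, a membrane DnaJ protein, rose by 0.49 ± 0.15 (adjusted p = 0.0489), from 34.5, 25.4 and 27.3 CPM to 41.6, 42.0 and 39.1 CPM.

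**Figure D3:**
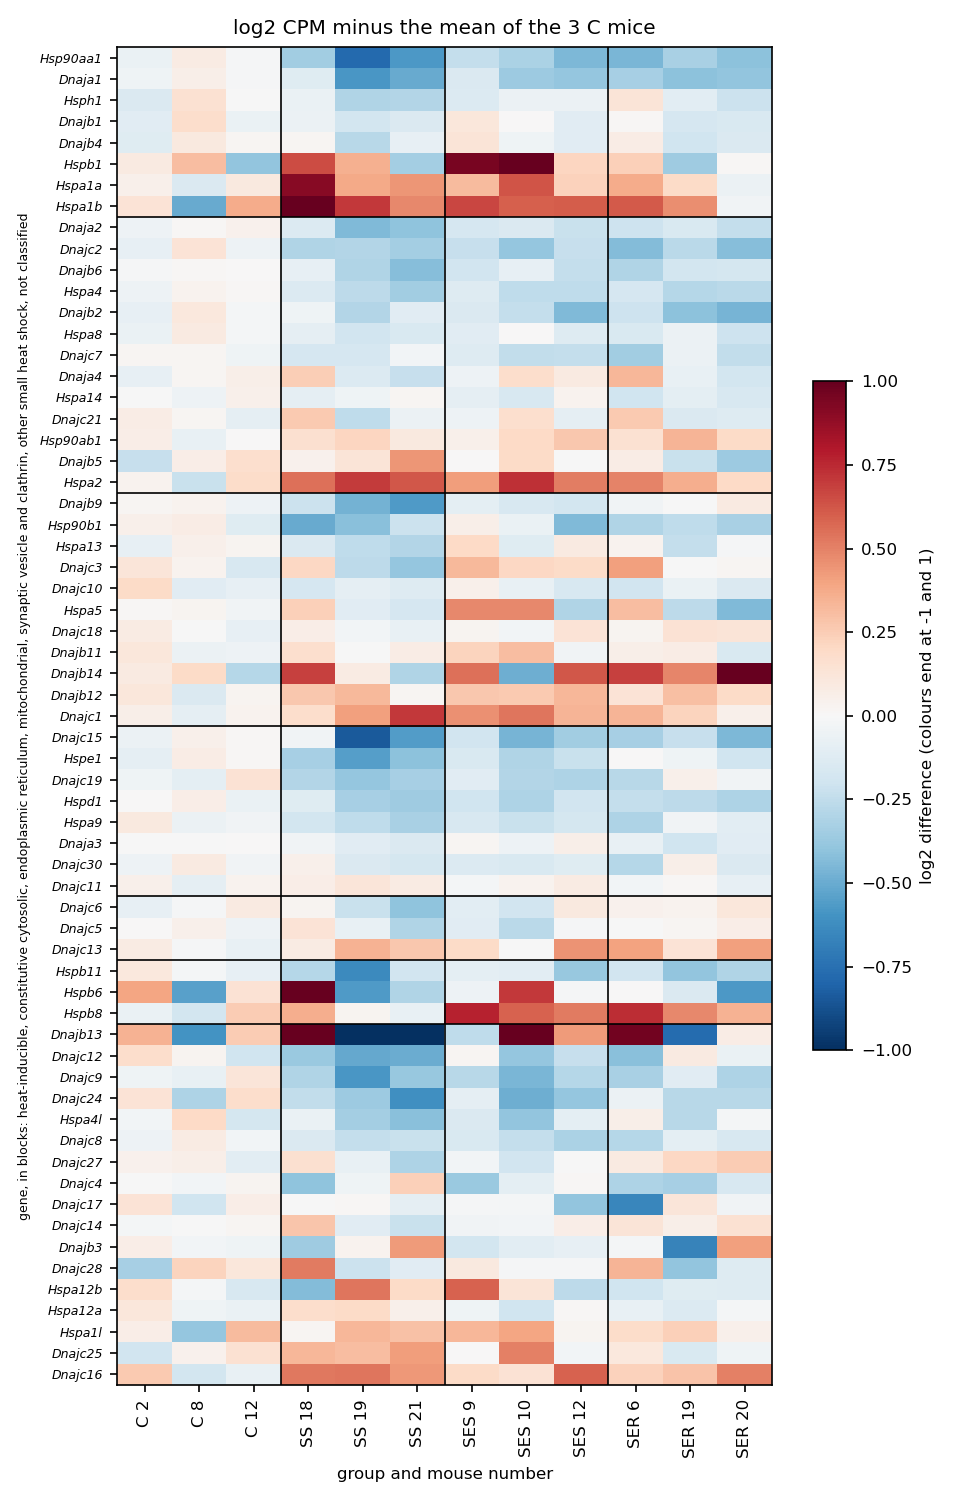
Log2 CPM of each tested member in each mouse minus the mean of the 3 C mice, in blocks by class. Hsp90aa1 and Dnaja1 are below the C mean in the 9 stress-exposed mice and Hspa2 is above it, and SS mouse 18 is the SS mouse nearest to the C mean for 34 of the 63.

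Counting groups that did not overlap, whatever the size of the difference, 19 of 63 members were lower in SS than in C (30.2%, where 14.2% of all genes were) and 8 were higher (12.7%, as 12.7% of all genes). Against the same C mice, 19 members (30.2%; background 13.2%) were lower in SES and 17 (27.0%; background 12.7%) in SER, and 7 (background 12.8%) and 8 (background 12.6%) were higher. In 10 members all 9 stress-exposed mice were below all 3 C mice (15.9%; background 5.1%), namely Dnaja1, Dnaja2, Dnajb6, Dnajc2, Dnajc8, Dnajc9, Hsp90aa1, Hspa4, Hspb11 and Hspd1. Only Hspa2 among members was above C in all 9 (1.59%; background 3.64%), with 71.3 to 103 CPM against 53.2 to 70.8 CPM. No ER member was among the 11.

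The balance of inducible against constitutive Hsp90 was read within each library as the ratio of Hsp90aa1 to Hsp90ab1 counts. GC content was 43.7% for Hsp90aa1 and 51.0% for Hsp90ab1, and its part in the ratio was not tested. The ratio needs no scaling between libraries. It was 1.10, 1.35 and 1.20 in C, 0.85, 0.61 and 0.76 in SS, 0.99, 0.85 and 0.74 in SES and 0.80, 0.76 and 0.80 in SER. Every C mouse was above 1 and every stress-exposed mouse was below it. The mean log2 ratio was 0.28 ± 0.15 (SD, n = 3) in C and -0.34 ± 0.19 (SD, n = 9) in the exposed mice, a difference of -0.62 (exact two-sided permutation test, p = 0.00455, the smallest that the 220 splits allow, adjusted p = 0.0182 over 4 ratios). Between SS and C alone the exact permutation p was 0.1, the smallest that 3 mice against 3 allow. All 4 ratios were chosen with the levels of these genes known, and the adjustment over 4 does not cover that choice. Hsp90aa1 itself was already known to lie below every C mouse in the exposed mice. The p-values of the ratios therefore describe the separation and are not independent support for it.

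The ratio of Hspa1a and Hspa1b together to Hspa8 was 0.0066, 0.0043 and 0.0071 in C, 0.0135, 0.0100 and 0.0091 in SS, 0.0092, 0.0090 and 0.0088 in SES and 0.0094, 0.0078 and 0.0065 in SER. The exposed mice were mostly higher, with SER mouse 20 inside the range of C (log2 difference 0.63, exact permutation p = 0.0136, adjusted p = 0.0182). In the ER, Hsp90b1 to Hsp90ab1 was 0.249, 0.280 and 0.232 in C and 0.155 to 0.254 in the exposed mice, with SES mouse 9 inside the range of C (log2 difference -0.46, exact permutation p = 0.0136, adjusted p = 0.0182). Hspa5 to Hspa8 was 0.112, 0.102 and 0.105 in C and spread from 0.090 to 0.160 in the exposed mice (log2 difference 0.15, exact permutation p = 0.455). For the running mice against SS none of the 4 ratios passed the test, with exact permutation p from 0.0595 to 0.964 before adjustment. GC content was 58.9% for Hspa1a, 58.1% for Hspa1b, 51.2% for Hspa8, 43.8% for Hsp90b1, 51.0% for Hsp90ab1 and 47.3% for Hspa5. Its part in these ratios was not tested.

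**Figure D4:**
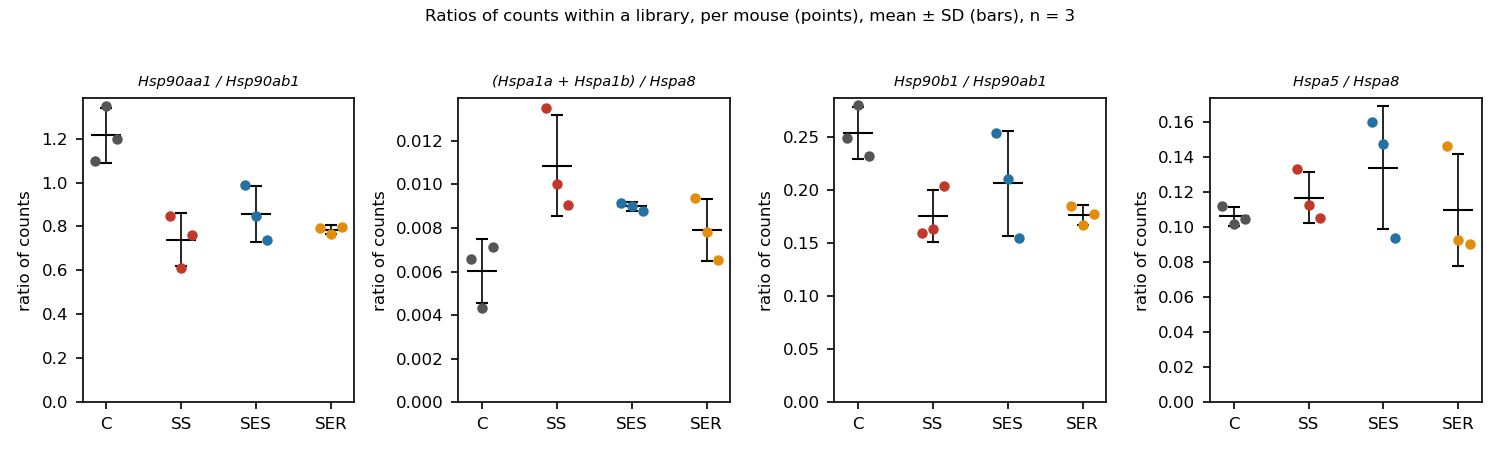
Ratio of the counts of 2 chaperones within each library, with 1 point per mouse and the mean ± SD of 3 mice per group. For Hsp90aa1 to Hsp90ab1 the 3 C mice lie at 1.10 to 1.35 and the 9 stress-exposed mice at 0.61 to 0.99.

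Across the 63 members the log2 fold change between SS and C went with the GC content of the transcripts (Spearman rho 0.59, a description across genes that share the same 6 libraries), where it was 0.33 over 14376 genes with a GC value. The coefficient was -0.46 for SES against SS and -0.60 for SER against SS, comparisons that share the SS mice. Hspa1a and Hspa1b are GC-rich, with 58.9% and 58.1%, and Hsp90aa1 and Dnajb9 are GC-poor, with 43.7% and 40.6%. After the correction for GC content and length, Hsp90aa1 stood at -0.46 on the log2 scale (adjusted p = 0.101), Hspa2 0.55 (0.0926), Hspa1b 0.65 (0.190) and Hspe1 -0.17 (0.311). Values thus moved least for Hsp90aa1 and Hspa2 and most for Hspe1 among these 4, and the part of GC content in the calls was not tested further.

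**Figure D5:**
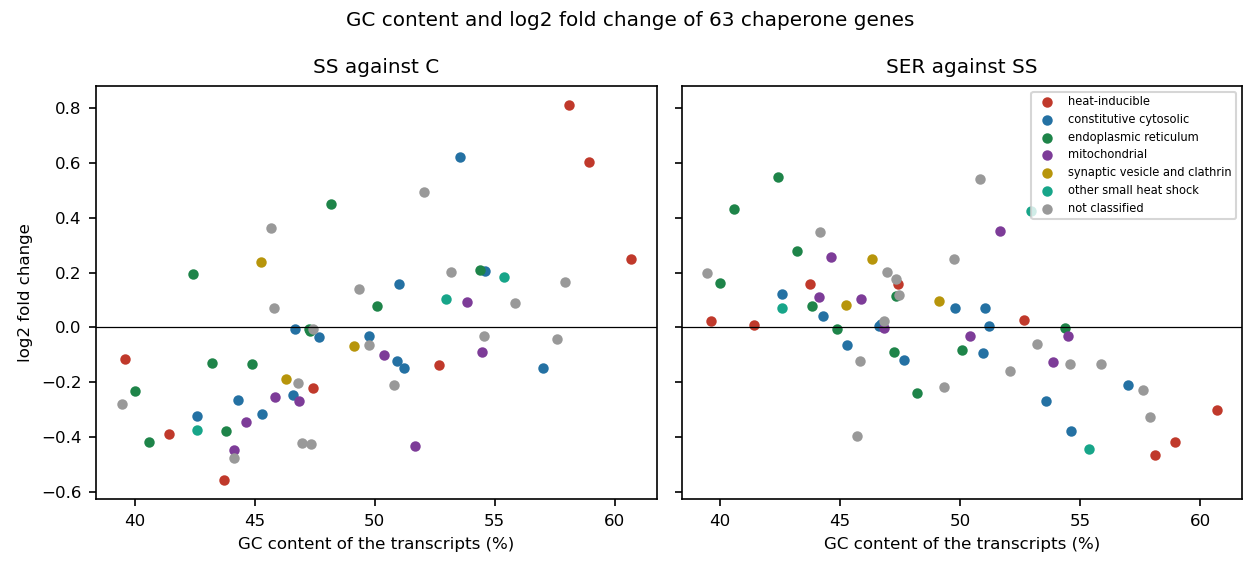
GC content of each member's transcripts in percent against its log2 fold change, for SS against C (left) and SER against SS (right), with 1 point per gene coloured by class. The points slope upward on the left (Spearman rho 0.59) and downward on the right (-0.60).

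Running was examined by comparing each running group with SS. For SES against SS, 0 of 63 members were called by edgeR (background 0%), with 6 at an unadjusted p under 0.05 (background 9.01%), and 0 by DESeq2 and limma-voom. For SER against SS, 0 members were called (background 0.0481%), with 8 at an unadjusted p under 0.05 (background 18.2%), 2 by DESeq2 (4.16% of all genes by that tool) and 0 by limma-voom. Without SS mouse 18, edgeR called 4 of 64 members for SES, where 8.69% of all genes were called, and 8 for SER, where 16.5% were. Of the 17 genes named throughout, 14 had positive fold changes in SES against SS and 12 in SER against SS. Their values ran from -0.46 (Hspa1b in SER) to 0.60 (Hspb1 in SES). Over all 63 members 66.7% and 55.6% were positive, and over all genes tested 47.6% and 47.3%. In SS against C, 13 of the 17 were negative. These comparisons share the SS mice, so opposite signs are not independent of each other.

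Dnajb9 had the smallest p in SER against SS. Its level was 51.0, 48.7 and 48.0 CPM in SES and 53.1, 54.2 and 58.0 CPM in SER, above every SS mouse, with log2 differences of 0.27 ± 0.10 (adjusted p = 0.524) in SES and 0.43 ± 0.10 (adjusted p = 0.104) in SER. Hspe1 was at 83.6, 75.2 and 79.5 CPM in SES and 93.0, 89.8 and 80.9 CPM in SER, again above the 3 SS mice, with differences of 0.21 ± 0.09 (adjusted p = 0.538) and 0.35 ± 0.09 (adjusted p = 0.113). In SER the values of both genes overlapped those of the C mice. Hspb8, a small heat shock protein that works with the cochaperone Bag3 in selective autophagy, was at 35.2, 31.1 and 29.5 CPM in SES and 34.5, 28.8 and 26.3 CPM in SER, against 26.5, 21.0 and 19.5 CPM in SS and 19.6, 18.1 and 24.6 CPM in C. All 6 running mice were above the C mice, and the differences from SS were 0.52 ± 0.16 (adjusted p = 0.524) in SES and 0.42 ± 0.16 (adjusted p = 0.189) in SER.

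Hsp90aa1 stayed between C and SS in the running mice, at 1616, 1535 and 1395 CPM in SES and 1391, 1526 and 1435 CPM in SER, overlapping SS mouse 18 but no C mouse. Its differences from SS were 0.22 ± 0.11 (adjusted p = 0.556) and 0.16 ± 0.11 (adjusted p = 0.457). Hspa5 was high in SES mice 9 and 10 and SER mouse 6, at 322, 322 and 286 CPM, and low in SES mouse 12 and SER mice 19 and 20, at 187, 193 and 170 CPM. That split runs within both groups, and no group difference was called. The rule for named genes also gave Hspa13, an Hsp70 of the ER, in SES against SS (0.29 ± 0.11, adjusted p = 0.524), and Hspa12a, a distant Hsp70 relative, below SS in both running groups (-0.21 ± 0.09, adjusted p = 0.524 in SES; -0.22 ± 0.09, adjusted p = 0.208 in SER). Hspa2 was at 83.2, 103 and 88.5 CPM in SES and 87.8, 79.9 and 71.3 CPM in SER, with -0.27 ± 0.12 in SER against SS (adjusted p = 0.259), and Dnajb5, a DnaJ protein linked to histone deacetylase control in muscle, had -0.38 ± 0.14 (adjusted p = 0.190). Dnajc16 (-0.18 ± 0.14, adjusted p = 0.708) and Dnajb2 (-0.12 ± 0.11, adjusted p = 0.733) were the other lower genes in SES.

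Effective and ineffective responders were close. For SES against SER 0 of 63 members were called (background 0.0275%), with 2 at an unadjusted p under 0.05 (background 3.72%) and 0 by DESeq2 and limma-voom. Hspb1 had the widest gap, at 8.12, 9.84 and 4.82 CPM in SES and 4.89, 3.18 and 4.15 CPM in SER, a log2 difference of 0.90 ± 0.32 (adjusted p = 1.00), with SES mouse 12 just below SER mouse 6. Dnaja3, a mitochondrial DnaJ protein, had 0.14 ± 0.08, Dnajc1 0.24 ± 0.14, Dnajc27 -0.26 ± 0.11, Dnajb9 -0.16 ± 0.10 and Hspe1 -0.15 ± 0.09, each with an adjusted p of 1.00. With 3 mice a group these values do not show that the responders are alike. In the same comparison 12 of 12 choroid plexus markers had positive differences (median 1.86 on the log2 scale) and 0 of 10 microglial markers did, and their part in the values was not tested.

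Running mice were also set against C, which the same 3 C mice serve in all such comparisons. For SES against C, 0 members were called (background 0.179%), 18 had an unadjusted p under 0.05 (background 16.2%), and DESeq2 called 2 (3.43% of all genes by that tool) and limma-voom 0. For SER against C, 0 were called (background 1.19%), 16 had an unadjusted p under 0.05 (background 18.6%), and DESeq2 called 6 (6.54% of all genes by that tool) and limma-voom 0. Hsp90aa1 had -0.33 ± 0.11 (adjusted p = 0.179) in SES and -0.40 ± 0.11 (adjusted p = 0.0860) in SER, Hspa2 0.55 ± 0.12 (0.104) and 0.35 ± 0.12 (0.148), and Hspb8 0.62 ± 0.16 (0.124) and 0.53 ± 0.16 (0.106). Dnajc2, a ribosome-bound chaperone, was at 42.6, 49.7 and 43.5 CPM in C, 38.6, 34.5 and 38.6 CPM in SES and 33.4, 37.6 and 33.6 CPM in SER, with -0.29 ± 0.10 (adjusted p = 0.203) and -0.38 ± 0.10 (adjusted p = 0.0796). Dnajc9 (-0.34 ± 0.12, adjusted p = 0.198) and Dnajc1 (0.45 ± 0.14, adjusted p = 0.161) completed the rule for SES, and Dnaja1 (-0.38 ± 0.11, adjusted p = 0.105) and Hsp90ab1 (0.23 ± 0.09, adjusted p = 0.197) that for SER.

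A test of any difference among the 4 groups called 0 members (background 0.206%), with 18 at an unadjusted p under 0.05 (background 23.8%), 10 called by DESeq2 (13.3% of all genes by that tool) and 0 by limma-voom. The 10 smallest p-values belonged to Hspa2 (adjusted p = 0.0652), Hsp90aa1 (0.0662), Hspe1 (0.0745), Dnajb9 (0.0788), Hspb8 (0.0789), Dnajc2 (0.103), Dnaja1 (0.115), Dnajc9 (0.127), Dnajc1 (0.128) and Hspd1 (0.129). They come from each of the cytosolic, ER, mitochondrial and small heat shock classes.

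The classes can be read mouse by mouse as the median log2 distance of their members from the C mean. Heat-inducible members had -0.021, -0.23 and -0.22 in SS, 0.12, -0.019 and -0.087 in SES and 0.10, -0.18 and -0.15 in SER, overlapping the C mice at -0.056, 0.090 and -0.0081. Constitutive members were below the C mice, at -0.049, 0.021 and 0.0062, in all 9 exposed mice, at -0.080 to -0.21. ER members had 0.17, -0.091 and -0.17 in SS, 0.22, -0.026 and 0.087 in SES and 0.058, -0.0022 and 0.017 in SER, on both sides of the C mice at 0.084, 0.027 and -0.054. Mitochondrial members were below the C mice, at -0.023, 0.022 and 0.0094, in the 9 exposed mice, from -0.042 in SER mouse 19 to -0.33 in SS mouse 21. These medians are described without a test.

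Other parts of the folding machinery were followed through lists. The TRiC chaperonin and its delivery complex prefoldin, which fold actin and tubulin, were lower in SS against C: 8 of 14 genes were called lower (background 4.63%), 0 had a positive fold change and the median was -0.31, against a median of 0.018 over all genes. Cct8 was at 243, 243 and 245 CPM in C and 195, 176 and 180 CPM in SS (-0.41 ± 0.08, adjusted p = 0.0223), with Pfdn5 at -0.46 ± 0.11 (0.0261), Cct6a at -0.30 ± 0.08 (0.0301) and Vbp1 at -0.43 ± 0.11 (0.0321). The summed list was 2157, 2276 and 2223 CPM in C and 1959, 1727 and 1773 CPM in SS, with mouse 18 again the nearest to C, and 1878 to 2131 CPM in the running mice. Its calls went from 8 to 10 without SS mouse 18, where 25.7% of all genes were called. They went to 0 with the nuclear covariate (median -0.20) or with the GC correction (-0.15), where 0% of all genes were called. With mouse 18 alone standing for SS the median was -0.19. In SER against C, Cct8 was the 1 called gene of the 14 (-0.40 ± 0.08, adjusted p = 0.0418). Among 24 heat shock factors and cochaperones, the myosin chaperone Unc45a rose (0.44 ± 0.11, adjusted p = 0.0298) and the Hsp70 exchange factor Bag1 fell (-0.43 ± 0.11, adjusted p = 0.0305) in SS, and the Hsp90 partner Ppid fell in SER against C (-0.48 ± 0.10, adjusted p = 0.0420). Hsf1, the heat shock transcription factor, was at 14.8 to 18.7 CPM in C and 21.2 to 28.6 CPM in SS, groups that did not overlap but did not pass the test (0.56 ± 0.22, adjusted p = 0.121).

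In the unfolded protein response list 3 of 29 genes rose in SS against C (background 5.21%) and 1 fell (background 4.63%). Hyou1, a large ER chaperone that exchanges nucleotide on BiP, rose by 0.47 ± 0.10 (adjusted p = 0.0244), Syvn1, an ER ubiquitin ligase, by 0.49 ± 0.11 (0.0261) and Ern1, which codes for IRE1, by 1.19 ± 0.28 (0.0270). Canx, the lectin chaperone calnexin, fell by 0.27 ± 0.07 (0.0411). The transcription factors of the response were not called: Atf4 had -0.25 ± 0.11 (adjusted p = 0.159), Ddit3 -0.39 ± 0.18 (0.180) and Xbp1 -0.11 ± 0.20 (0.761), the last without regard to its spliced form. Atf6b (0.40 ± 0.12, adjusted p = 0.0542) and Atf6 (0.14 ± 0.14, adjusted p = 0.556) had positive differences. Atf6b was at 44.5 to 52.6 CPM in C and 56.5 to 70.7 CPM in SS, without overlap, and Atf6 overlapped. Of 11 genes of the mitochondrial unfolded protein response, the inner membrane protease Yme1l1 fell (-0.33 ± 0.08, adjusted p = 0.0285) and the other 10 were not called. With the nuclear covariate or with the GC correction, 0 genes of these 3 other lists were called in SS against C, where 0% of all genes were called. With mouse 18 alone standing for SS, the median was -0.012 for the heat shock factors and cochaperones. In that fit it was 0.19 for the unfolded protein response list and 0.014 for the mitochondrial list. In SES against SS, SER against SS, SES against SER and SES against C, 0 genes of these 4 lists were called by edgeR, and 5, 14, 1 and 15 of the 78 tested had an unadjusted p under 0.05. These are 6.41%, 17.9%, 1.28% and 19.2%, beside 9.01%, 18.2%, 3.72% and 16.2% of all genes.

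Isoforms were counted separately for 18 of the 64 members. Shares of a gene's counts moved widely between libraries for Dnajc6, where 1 transcript took 1.10% to 65.1% and another 17.4% to 69.9%, while the main transcript of Dnaja1 kept 77.5% to 88.5%. Levels of Dnajc6 are therefore given as the sum over its transcripts. By RefSeq coordinates 29 of the 64 members overlap another gene, among them Hspa8 with 3 small nucleolar RNA genes, Hspa5 with Rabepk, and Hspd1 with Hspe1.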

How the data were processed

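Each of the 12 ventral hippocampi gave 1 library. Per the labels' protocols, 1.3 µg of Trizol-extracted total RNA went into each NEBNext Ultra II Directional library. TopHat and the mm10 genome are named in the submitters' processing notes. How reads were counted, by which program, strand rule and annotation, is not given in the sources used here. Overlapping genes and near-identical copies are therefore uncertain. The authors deposited estimated counts, all whole numbers and not normalized, for 33299 RefSeq transcripts per mouse, so rounding changed none.

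Counts were summed per symbol, filtered with filterByExpr (minimum count 10), scaled by TMM (factors 0.97 to 1.04) and tested with edgeR 4.0.16 (quasi-likelihood F test, 1 fit of all 12 libraries, 8 residual degrees of freedom) in R 4.3.3. Every adjusted p is Benjamini-Hochberg over all 14541 genes unless another tool, test or fit is named, and calls are at an adjusted p under 0.05. For another fit it is over the genes tested there, 14762 without SS mouse 18 and 14376 with the GC correction. Errors beside log2 fold changes are SEs from the F statistic. The fit was tested on simulated data. Alternatives used limma-voom (limma 3.58.1), DESeq2 1.42.0, other scalings and filters, a nuclear RNA covariate, transcript-level tests and leaving out mice. A lowess correction for GC content and length, a fit in which mouse 18 alone stands for SS, the sum of Hspa1a and Hspa1b and the refits of the folding lists were added after seeing the data. Members, classes and lists were chosen with earlier results of these data known. Named genes were 17 fixed ones, described in full for SS against C, and in each comparison the called members or the 3 with the smallest p in each direction.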

Additional observations from a re-analysis of the deposited data

How the results depend on the processing

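In SS against C, 8 members were called, where 9.83% of all genes were called. The count was 7 or 8 with other scalings, other filters or limma-voom, where 7.07% to 10.2% of all genes were called. The count was 16 with DESeq2 and 16 without C mouse 2 and SS mouse 18 together. It was 0 with a fit of only these 2 groups, with the nuclear RNA covariate and with the GC and length correction. In each of these fits 0% of all genes were called. On transcripts as deposited it was 0 as well, where 0.0098% of all transcripts tested were called. The fit with mouse 18 alone standing for SS leaves 1 SS mouse assumed to vary like the others, and its calls are not counted here. Leaving out 1 mouse gave 0 to 18 members in SS against C, 0 to 4 in SES against SS, 0 to 8 in SER against SS, 0 to 4 in SES against C, 0 to 5 in SER against C and 0 to 16 for any group difference, each highest without SS mouse 18, and 0 in SES against SER. Without that mouse 25.7%, 8.69%, 16.5%, 3.71%, 5.39% and 23.2% of all genes were called, in the same order. The cause was not tested. A fit with fewer mice or libraries also has fewer degrees of freedom, and the part of that in the counts was not tested.

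DESeq2 called 2 members in SER against SS, 2 in SES against C, 6 in SER against C and 10 for any group difference, beside 4.16%, 3.43%, 6.54% and 13.3% of all genes by that tool, and its 16 in SS against C stood beside 15.6%. Without C mouse 2 and SS mouse 18 the counts were 4 in SES against SS, 7 in SER against SS, 5 in SES against C, 3 in SER against C and 14 for any group difference, beside 9.71%, 17.5%, 6.31%, 5.41% and 22.8% of all genes, and 24.8% in SS against C. SER against C gave 2 with only its 2 groups in the fit, where 1.99% of all genes were called. The unfiltered table gave 1 for any group difference, where 1.51% of all genes were called.

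Class medians (log2) moved by more than the spread between mice as follows, and the cause was not tested. With the nuclear covariate, constitutive members were at -0.077 and mitochondrial at -0.13 in SS against C, constitutive at -0.071 and mitochondrial at -0.074 in SER against SS, and mitochondrial at -0.11 in SES against C. With the GC correction, constitutive members were at -0.070 and mitochondrial at -0.14 in SS against C, constitutive at -0.038 in SER against SS, mitochondrial at -0.053 in SES against C and constitutive at -0.12 in SER against C. With mouse 18 alone standing for SS, ER members were at 0.16 and mitochondrial at -0.084 in SS against C. In the same fit, heat-inducible, constitutive and mitochondrial members were at -0.013, -0.028 and -0.012 in SES against SS and at -0.17, -0.095 and -0.087 in SER against SS. Without C mouse 2 and SS mouse 18, heat-inducible members were at -0.24 and constitutive at -0.22 in SS against C, and constitutive at -0.12 in SES against C. Leaving out 1 mouse moved constitutive medians over -0.19 to -0.080 in SS against C, -0.055 to 0.043 in SER against SS and -0.12 to -0.055 in SES against C.

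Of the named genes' values under the alternatives, 1244 kept their direction and side of the threshold, 57 kept direction and passed it, 86 kept direction and no longer passed it, and 16 changed sign, as follows, the cause not being tested. In SS against C, Hspa5 was at 0.12 with the nuclear covariate, 0.039 with the GC correction, 0.23 with mouse 18 alone standing for SS and -0.15 to 0.071 when 1 mouse was left out. Dnajc3 was at 0.10 with the nuclear covariate and 0.20 with mouse 18 only, Dnajc5 at 0.12 and 0.13 (-0.19 to 0.033 with 1 mouse left out), and Dnajc6 at 0.0060 and 0.021. Hsp90aa1 in SER against SS was at -0.033 with mouse 18 only. Hspe1 in SER against C was at 0.12 with the GC correction, and Dnajb9 in SER against C ran from -0.016 to 0.046 with 1 mouse left out.

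No paired analysis was possible because each of the 12 mice was in 1 group only. The mouse numbers 12 (C and SES) and 19 (SS and SER) recur, each for separate libraries. With 3 mice a group and 9323607 to 15707516 counts a library, a count of 0 allows up to 3 counts, or 0.189 to 0.327 CPM, which covers counting error only.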
